A study of Mus musculus with 48 samples.

Results

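V(D)J recombination of the mouse Igκ locus was compared between Ku70-/- and WT cells given L82-G17, a DNA ligase I inhibitor, reading every joint made by the coding end of the Jκ1 segment. The comparison used 6 of the 48 libraries of the series, chosen by genotype, treatment and bait as labelled, with 3 libraries of Ku70-/- and 3 of WT. All were made from pro-B cell lines transformed with the Abelson oncogene (vAbl), to which 3 µM STI-571, the Abl kinase inhibitor that arrests the cells in G1 and switches on RAG1/2, was given for 96 h with 25 µM L82-G17 added on the same day. The study names 1 clone for each genotype and describes its Ku70-/- cells as lacking exons 4 and 5 of Ku70, without describing the libraries with L82-G17, so a feature of a clone and an effect of its genotype cannot be told apart. Libraries of both genotypes given STI-571 with DMSO, and cycling libraries without STI-571, with 3 per genotype each, were used for reference. The labels give no replicate numbers, and those used here only name libraries in the order of deposit. Nothing in the labels says whether the 3 libraries of a group came from separate cultures, so p-values measure only the spread between these libraries.

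RAG1/2 cuts between a gene segment and its recombination signal sequence (RSS), leaving a hairpinned coding end and a blunt signal end. The Ku70/Ku80 heterodimer binds such ends and starts nonhomologous end joining (NHEJ), in which the hairpin is opened and the 2 coding ends are ligated by DNA ligase IV with little loss and often with short insertions. Without Ku, ends are joined by alternative end joining (A-EJ), which is known for lost end sequence and for short stretches shared by the 2 ends (microhomology), and which has been linked to DNA ligases I and III. L82-G17 is a small molecule inhibitor of DNA ligase I, the enzyme best known for sealing Okazaki fragments. The study reports that ligase I protein dropped in Ku70-/- cells under STI-571, with little left on the last day examined. It proposes ligase III as the main A-EJ ligase in arrested cells. Its blot covered Ku70-/- lines and not WT. No readout of ligase activity was among the data. Whether differences between L82-G17 and DMSO come from blocking ligase I was not tested.

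HTGTS-JoinT-seq, a linear amplification method that reads outward from a fixed bait end into whatever it was joined to (the prey), gave 1 line per junction from 500000 read pairs per library. The WT libraries with L82-G17 held between 186395 and 213122 junctions and the Ku70-/- libraries between 130546 and 134894. Copies of the same joint were kept, so the Ku70-/- libraries held between 10744 and 14117 distinct Vκ junctions and the WT libraries between 6386 and 9499. Junctions per site differed between libraries of 1 group by more than the sampling noise, with chi-square per degree of freedom from 9.94 to 25.7 in the 2 groups with L82-G17. Ku70-/- DMSO replicate 1 stood apart from its group with 889 distinct Vκ junctions against 12042 and 12885. It is also not in the study's list of analysed libraries, and the main comparisons of Ku70-/- with DMSO are therefore also given without it.

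The bait break lies on chromosome 6 between the last base of the Jκ1 RSS and the first coding base at 70672556 (mm9, used throughout). The germline sequence there, at chr6:70672517-70672580 on the plus strand, is shown because each joint below is a loss or gain relative to it. The RSS is on the left with its heptamer in capitals and the Jκ1 coding sequence starts right after the capitals.
Jκ1: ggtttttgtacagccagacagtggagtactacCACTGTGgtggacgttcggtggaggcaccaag

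Prey ends were assigned to 138 Vκ break sites between 67506210 and 70654171, of which 93 lay next to an annotated Vκ gene and 111 had the full CACAGTG heptamer. A joint of the Vκ and Jκ1 coding ends deletes the DNA between at 63 of them (deletional sites) and inverts it at the other 75 (inversional sites). The 2 most used sites in both genotypes, Igkv1-135 at chr6:67560479-67560530 on the plus strand and Igkv12-44 at chr6:69764597-69764648 on the minus strand, are shown with the last coding bases on the left and the RSS opening with the heptamer in capitals.
Igkv1-135: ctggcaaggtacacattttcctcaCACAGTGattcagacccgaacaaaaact
Igkv12-44: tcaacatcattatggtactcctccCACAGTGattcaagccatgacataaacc

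Ku70-/- cells made fewer Vκ-Jκ1 joints than WT cells with L82-G17. V-J efficiency, the junctions within 200 bp of a Vκ site as a percent of read pairs, was 20.7%, 20.5% and 20.96% in the 3 Ku70-/- libraries and 35.8%, 34.6% and 39.6% in the WT libraries. Every Ku70-/- library was below every WT library, with a difference of -15.95 percentage points ± 1.52 (SE, n = 3 against 3; exact two-sided permutation p = 0.1, the smallest p that 3 against 3 allows). With DMSO the WT libraries gave 72.4%, 68.9% and 69.2% and the Ku70-/- libraries 18.8%, 22.4% and 21.5%. The WT yield with L82-G17 was thus 0.523 times that with DMSO, while the Ku70-/- yield was 0.990 times that with DMSO (exact permutation p = 0.9). The overlap of the Ku70-/- groups came from DMSO replicate 1 (18.8%). Without it the DMSO mean was 21.98%, and every Ku70-/- library with L82-G17 lay below both remaining DMSO libraries, by 1.25 percentage points on average. The change in the genotype difference between DMSO and L82-G17 was 33.3 percentage points (exact permutation of the treatment within genotype, p = 0.06, adjusted 0.131 over 24 measures, smallest p 0.005; 32.2 and p = 0.1 without DMSO replicate 1). Since Ku70-/- barely changed, this p depends on how its small change ranks among the arrangements. It therefore does not measure the size of the WT fall. Cycling cells gave 0.936% to 1.23% in Ku70-/- and 4.03% to 5.88% in WT. When each distinct junction was counted once in place of each read, the genotype difference with L82-G17 turned to 1.02 percentage points in favour of Ku70-/- (exact permutation p = 0.1), and each distinct Vκ junction was listed 7.33 to 9.56 times in Ku70-/- and 20.9 to 27.1 times in WT.

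**Figure D1:**
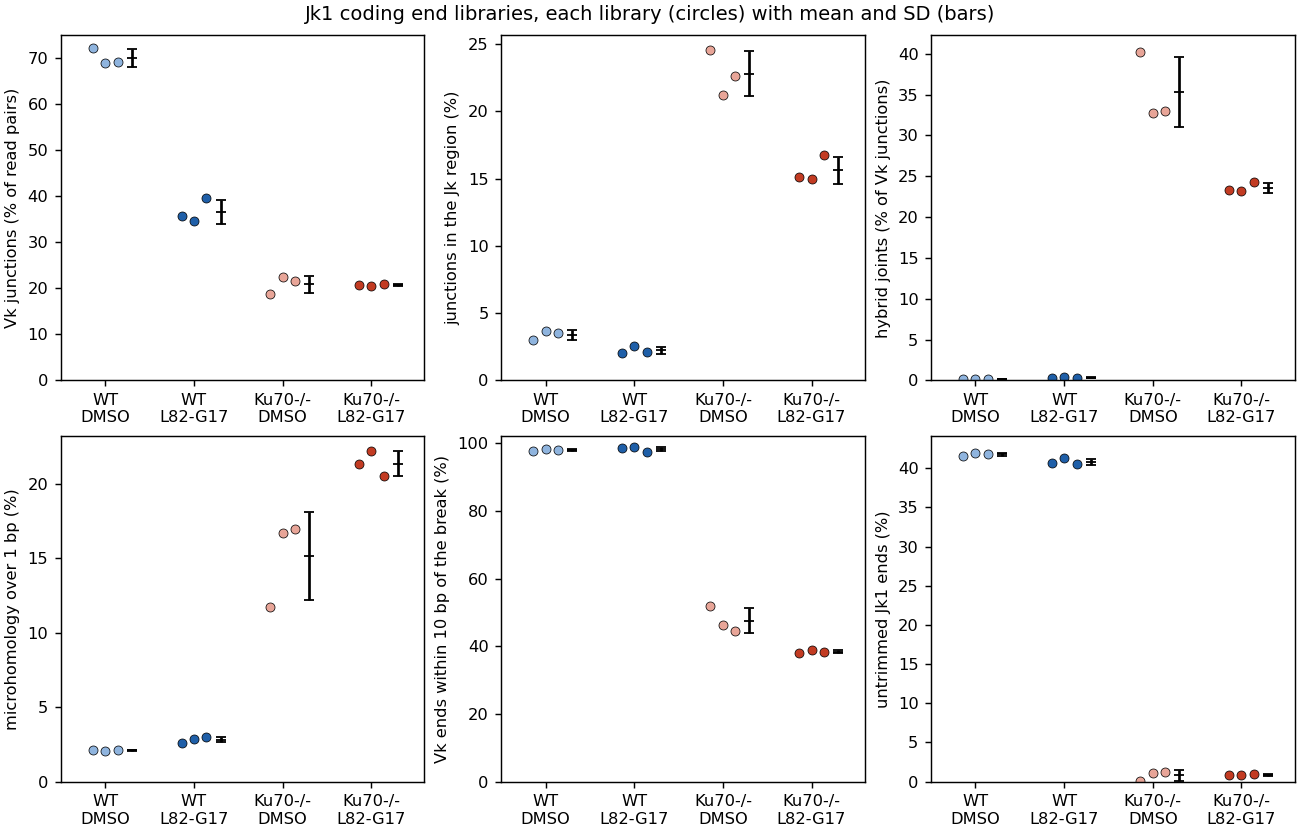
Each of 12 coding end libraries (circles) with the mean and SD of 3 libraries (bars), for V-J efficiency, the share of junctions in the Jκ region, hybrid joints, microhomology over 1 bp, Vκ ends within 10 bp of the break and untrimmed Jκ1 ends, all in percent. The 3 Ku70-/- libraries with L82-G17 sit apart from the 3 WT libraries in all 6 panels, and from the Ku70-/- DMSO libraries in hybrid joints, microhomology, Vκ ends within 10 bp and Jκ region junctions.

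The junctions that did not reach a Vκ site went to different places in the 2 genotypes. Of all listed junctions, 78.2% ± 0.510 (SD, n = 3) in Ku70-/- and 92.8% ± 0.132 in WT ended at Vκ sites. The Jκ region, 2 kb on each side of the bait break, held 15.6% ± 0.991 in Ku70-/- and 2.23% ± 0.269 in WT. Most of the Ku70-/- excess was the bait end rejoined to the upstream side of its own break, within 200 bp and in the unrearranged direction, with 14594, 13993 and 17448 junctions in Ku70-/- and 485, 353 and 381 in WT. Junctions of that kind were nearly all added by a separate step of the authors' pipeline for the bait region (11.5% of the Ku70-/- and 0.206% of the WT list on average). Rejoined ends in Ku70-/- had lost a median of 14 to 16 bases upstream and 15 to 16 bases of Jκ1, against 0 upstream and 0 to 1 of Jκ1 in WT. Bases shared by both sides are counted to both, so these losses are understated, as with the GTG that ends the heptamer and opens Jκ1. Microhomology over 1 bp made up 21.6% ± 0.289 of these joints in Ku70-/- and 39.9% ± 0.763 in WT. Joints with neither shared nor inserted bases made up 48.6% ± 0.407 in Ku70-/- and 17.2% ± 2.13 in WT. A rejoining without loss or insertion restores the germline sequence and cannot be listed as a junction. These counts and losses therefore cover imprecise rejoining only. As a percent of read pairs, this rejoining was 3.07 ± 0.369 in Ku70-/- with L82-G17 and 5.23 ± 0.558 with DMSO, without overlap (exact permutation p = 0.1; 5.54 without DMSO replicate 1).

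Junctions at Jκ2 to Jκ5 were 3.17% ± 0.169 of the Ku70-/- and 1.99% ± 0.300 of the WT list. The rest of chromosome 6 was the only destination besides Vκ sites with a larger share in WT, at 4.70% ± 0.267 against 2.15% ± 0.231 in Ku70-/-. A large part of it lay at 1 place in the intron between Jκ5 and the constant region, where the prey end sat just before a heptamer (chr6:70675008-70675014), with 6593, 5818 and 6804 junctions in WT and 1161, 904 and 1050 in Ku70-/-. The reference around it, at chr6:70674988-70675035 on the plus strand, is shown with the heptamer in capitals.
Jκ-Cκ intron heptamer: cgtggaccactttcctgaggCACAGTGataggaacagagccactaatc
The share of this place was 3.24% ± 0.152 in WT with L82-G17 and 2.13% ± 0.0330 with DMSO, whereas in Ku70-/- it was 0.783% ± 0.0932 with L82-G17 and 0.382%, 1.36% and 1.42% with DMSO, replicate 1 being the lowest. As a percent of read pairs the WT order was the reverse, with 1.28 ± 0.104 with L82-G17 and 1.595 ± 0.0421 with DMSO, without overlap (exact permutation p = 0.1). Vκ region junctions away from any site made up 2.63% ± 0.240 in Ku70-/- and 0.133% ± 0.0342 in WT, and other chromosomes 1.38% ± 0.236 and 0.113% ± 0.0233. The sites were called from WT libraries only. A break used only in Ku70-/-, or an end trimmed beyond the window of its site, therefore counts as away from sites. The choice of sites thus favours a low WT share there, and how much of the contrast it makes was not tested. In all 5 destinations the libraries of the 2 genotypes did not overlap (exact permutation p = 0.1 each). For Vκ sites the genotype gap was smaller with L82-G17 than with DMSO by 7.09 percentage points (exact permutation p = 0.005, adjusted 0.03; 6.55 without DMSO replicate 1), the Ku70-/- share having been 71.8% and the WT share 93.5% with DMSO.

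Joints at Vκ sites were built differently in the 2 genotypes. Direct joints, with neither shared nor inserted bases, made up 48.2%, 48.8% and 48.7% in Ku70-/- and 71.5%, 71.9% and 70.5% in WT. Joints on 1 bp of microhomology made up 27.7% ± 0.708 in Ku70-/- and 12.9% ± 0.309 in WT. Microhomology over 1 bp made up 21.3%, 22.2% and 20.5% in Ku70-/- and 2.61%, 2.86% and 2.99% in WT. Its share in Ku70-/- was above every Ku70-/- DMSO library (11.8%, 16.7% and 16.9%), and the change in the genotype difference between DMSO and L82-G17 was 5.47 percentage points (exact permutation p = 0.1, adjusted 0.15; 3.78 without DMSO replicate 1). The WT share was also above every WT DMSO library (2.08% to 2.10%). Within Ku70-/- the shares stepped down with length, from 11.9% at 2 bp to 4.80% at 3 bp, 2.39% at 4 bp and 0.778% at 5 bp, with 1.47% at 6 bp or more. In WT they were 2.41%, 0.205%, 0.0956%, 0.0288% and 0.0828%. When each distinct junction was counted once, the direct share turned to 10.7 percentage points higher in Ku70-/- than in WT, while the microhomology and insertion shares kept their direction.

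**Figure D2:**
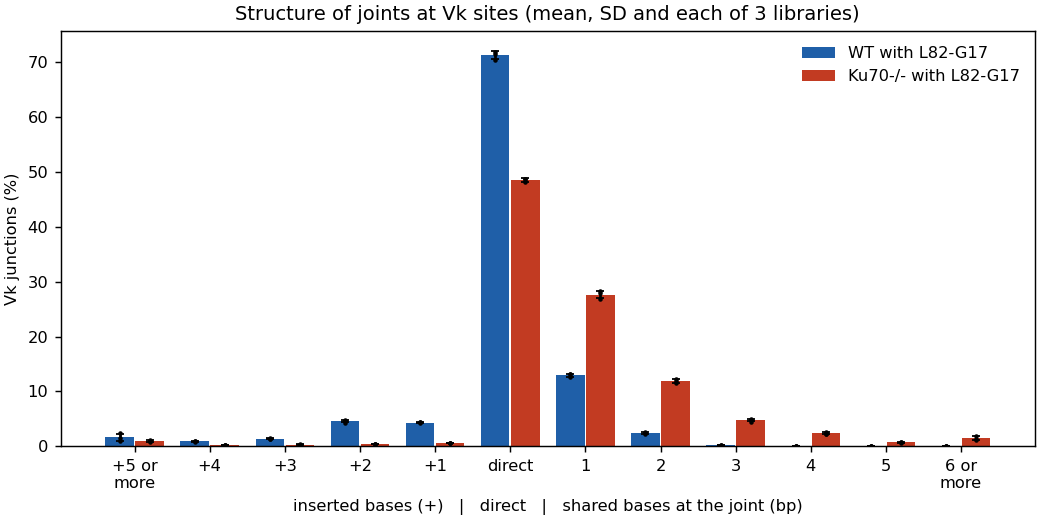
Percent of Vκ junctions by the number of inserted bases (left, with +), direct joining (middle) and shared bases in bp (right), with L82-G17; bars are means, error bars SD and points the 3 libraries of each genotype. Ku70-/- joints exceed WT joints in every class from 1 bp on, with 11.9% against 2.41% at 2 bp, and fall below WT joints in the direct and inserted classes.

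Insertions made up 2.42% ± 0.253 of the Ku70-/- and 12.9% ± 0.439 of the WT joints. In WT, 69.3% ± 3.86 of the insertions were 1 or 2 bases long, and 56.4% ± 2.99 were an exact inverted repeat of an untrimmed coding end. That is the form of the palindromic (P) bases that opening a hairpin off its tip leaves. In Ku70-/-, 38.3% ± 3.73 were 1 or 2 bases long and 17.7% ± 4.28 were such inverted repeats. Only joints with an untrimmed end could count, and these were rarer in Ku70-/-, so the lower share follows in part from trimming. Short insertions can match by coincidence, and the rate of such matches was not estimated. WT insertion shares were lower with L82-G17 than with DMSO, at 12.7%, 12.6% and 13.4% against 14.8% to 15.04%, without overlap (exact permutation p = 0.1).

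WT joints had lost few bases from either end and Ku70-/- joints had lost more. The Jκ1 end was untrimmed in 0.835%, 0.773% and 0.982% of the Ku70-/- joints and in 40.7%, 41.3% and 40.6% of the WT joints. The median joint had lost 15 bases of Jκ1 in each Ku70-/- library and 1 base in each WT library. In WT, 94.6% ± 0.212 of the Jκ1 ends had lost between 0 and 3 bases, and only 0.140% ± 0.0445 had lost 10 or more. In Ku70-/-, 2.99% ± 0.294 had lost 0 to 3 bases, 69.4% ± 0.224 had lost 10 or more and 19.02% ± 0.209 had lost 30 or more. The Ku70-/- ends were not spread evenly, with local peaks in all 3 libraries at 4 bases (7.67% ± 0.0628) and at 16 bases lost (7.99%, 8.30% and 8.16%), whereas WT ends peaked at 0 (40.3% ± 0.377) and 2 bases (28.7% ± 0.217). Shared bases are counted to both ends, so losses are understated by up to the length of the microhomology.

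On the Vκ side, 38.03%, 39.02% and 38.2% of the Ku70-/- ends lay within 10 bp of the break, among ends within 100 bp, and 98.5%, 98.8% and 97.5% of the WT ends. The median distance was 14 bp in each Ku70-/- library and 3 bp in each WT library. The Ku70-/- share was below that of every Ku70-/- DMSO library, whose mean was 47.6%, and the genotype difference was further below 0 with L82-G17 than with DMSO (a change of -9.43 percentage points, exact permutation p = 0.025, adjusted 0.075; -7.31 without DMSO replicate 1). Loss of 10 or more bases at both ends was seen in 55.6% ± 0.801 of the Ku70-/- coding joints and in 0.0364% ± 0.0149 of those of WT.

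The commonest joints show both patterns. Each is written from Vκ to Jκ1 with 20 bases on each side, and capitals mark shared bases. Percents are of the coding or hybrid joints whose overlap or gap was at most 20 bp. At Igkv1-135 the commonest WT joint, 14.2% of its 16232 coding joints, was direct and had lost 3 bases of Jκ1 and none of Vκ. The commonest Ku70-/- joint, 2.65% of 13327, was direct and had lost 4 bases on each side, and the next, 2.42%, had lost 10 bases of Vκ and 9 of Jκ1 and shared 1 base.
WT Igkv1-135: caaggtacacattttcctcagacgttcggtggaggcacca
Ku70-/- Igkv1-135, direct: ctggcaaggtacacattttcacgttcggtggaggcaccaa
Ku70-/- Igkv1-135, 1 bp: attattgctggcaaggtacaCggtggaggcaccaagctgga
At Igkv12-44 the commonest WT joint (28.4% of 18316) kept all of Jκ1 and had lost 3 bases of Vκ, and the commonest Ku70-/- joint (5.79% of 8446) had lost 6 and 4 bases and shared 2.
WT Igkv12-44: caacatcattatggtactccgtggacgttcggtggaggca
Ku70-/- Igkv12-44: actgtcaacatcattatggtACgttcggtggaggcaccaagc
Igkv1-135 held 856 different coding joints in Ku70-/- and 243 in WT, and Igkv12-44 527 and 261.

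Across the 80 sites with at least 200 junctions in each of the 6 libraries, the share of microhomology over 1 bp ran from 7.81% to 37.2% (median 20.4%) in Ku70-/- and from 0.0529% to 61.1% (median 1.40%) in WT, and it was higher in Ku70-/- at 79. The exception was Igkv16-104, with 20.2% in Ku70-/- and 61.1% in WT. Its coding end, at chr6:68376043-68376094 on the plus strand, holds a GT that Jκ1 also opens with, and 59.1% of its 10910 WT coding joints were the same joint on these 2 bases, with Jκ1 intact, whereas the commonest Ku70-/- joint there was 3.33% of 6043.
Igkv16-104: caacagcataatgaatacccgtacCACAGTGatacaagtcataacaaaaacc
WT Igkv16-104 joint: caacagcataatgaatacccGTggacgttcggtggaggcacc
Ku70-/- Igkv16-104 joint: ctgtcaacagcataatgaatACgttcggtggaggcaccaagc

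Hybrid joints, in which the Jκ1 coding end is joined to the signal end of a Vκ break in place of its coding end, were common in Ku70-/- and rare in WT. They made up 23.3%, 23.2% and 24.3% of Vκ junctions in Ku70-/- and 0.333%, 0.405% and 0.339% in WT. Coding joints outnumbered hybrid joints 3.29, 3.31 and 3.12 times in Ku70-/- and 299, 246 and 294 times in WT, a log2 difference of -6.43 ± 0.0948 (SE; exact permutation p = 0.1). The Ku70-/- hybrid share was lower with L82-G17 than with DMSO (40.3%, 32.7% and 33.0%), while that of WT was higher (0.186% to 0.236% with DMSO), and both pairs of groups were without overlap. Per read pair, WT hybrid joints were 0.131% ± 0.0107 with L82-G17 and 0.149% ± 0.0215 with DMSO and overlapped (exact permutation p = 0.3), while WT coding joints were 36.6% and 70.0%. The genotype difference in hybrid share was smaller with L82-G17 than with DMSO (a change of -11.88 percentage points, exact permutation p = 0.005, adjusted 0.03; -9.41 without DMSO replicate 1). As percent of read pairs, Ku70-/- hybrid joints were 4.89 ± 0.173 with L82-G17 and 7.34 ± 0.234 with DMSO (7.22 ± 0.163 without DMSO replicate 1), and Ku70-/- coding joints were 15.8 ± 0.0518 with L82-G17 and 13.6 ± 2.05 with DMSO (14.8 ± 0.453 without DMSO replicate 1). Both differences were without overlap (exact permutation p = 0.1 each), while V-J efficiency overlapped between these groups only through DMSO replicate 1.

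The structure of hybrid joints was read on its own. In Ku70-/-, direct joints made up 47.3%, 49.5% and 48.6% of the hybrid joints beside 48.5% to 48.7% of the coding joints, the median loss of Jκ1 was 16 bases, and the median distance on the signal side was 14 to 15 bp. In WT, 19.4%, 20.97% and 21.9% of the few hybrid joints (597, 701 and 672 junctions) were direct and 58.3% to 60.3% had microhomology over 1 bp. The Jκ1 alignment ran past the break, into the RSS, in 25.9% ± 2.57 of the WT hybrid joints, 0.483% ± 0.0155 of the WT coding joints and 0.425% ± 0.0907 of the Ku70-/- hybrid joints. The commonest WT hybrid joint at Igkv12-44, 30.8% of 130, was seen in 2 of 3 libraries. It was listed with 8 shared bases, the Jκ1 heptamer and the base after it. Its sequence is also that of an intact signal end joined directly to an intact Jκ1 coding end, because both germline flanks carry the heptamer. Loss-free hybrid joints at such sites are thus listed as microhomology past the break, which lowers the direct share. Joints past the break with 6 or more shared bases were 18.1% ± 6.45 of the WT hybrid joints. The commonest Ku70-/- hybrid joint at Igkv12-44, 2.23% of 3995, had lost 10 bases of the signal end and 17 of Jκ1 and shared 1.
WT Igkv12-44 hybrid: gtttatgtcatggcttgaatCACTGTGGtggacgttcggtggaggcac
Ku70-/- Igkv12-44 hybrid: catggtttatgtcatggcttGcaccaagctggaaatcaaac

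In each Ku70-/- library hybrid joints were more frequent at inversional sites (26.4%, 26.8% and 28.4%) than at deletional sites (17.9%, 17.1% and 17.3%). Sites are named by the outcome of their coding joints. A hybrid joint has the reverse outcome, a deletion at inversional and an inversion at deletional sites. The gap was 9.75 ± 1.31 percentage points in Ku70-/- and 0.119 ± 0.0516 in WT, a difference of 9.63 (exact permutation p = 0.1). As a ratio of the inversional to the deletional share, a scale added after seeing the data, the genotypes overlapped, with 1.47, 1.57 and 1.64 in Ku70-/- and 1.70, 1.17 and 1.497 in WT (exact permutation p = 0.7). In the DMSO libraries of Ku70-/- the gap was 15.7 points in replicate 1 and 13.2 and 16.6 in the other two. The Vκ region was also split into 4 zones of equal length. From the outermost to the one nearest Jκ1, the Ku70-/- hybrid share with L82-G17 was 19.2% ± 0.892, 22.7% ± 0.416, 25.1% ± 1.19 and 26.8% ± 1.13. With DMSO it was 28.5%, 32.9%, 42.6% and 35.4%, highest in the third zone. Zone and orientation were not separated. Over the 80 sites the hybrid share with L82-G17 ran from 5.31% to 64.0% (median 22.2%) in Ku70-/- and from 0 to 3.84% (median 0.279%) in WT. Igkv4-69 (5.31%), Igkv4-70 (5.88%) and Igkv3-1 (7.27%) were lowest in Ku70-/-. The site at 70190421 (64.0%), Igkv8-16 (63.1%) and Igkv17-127 (47.9%) were highest, and the first pair also had the highest WT shares, 3.84% and 3.44%.

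**Figure D3:**
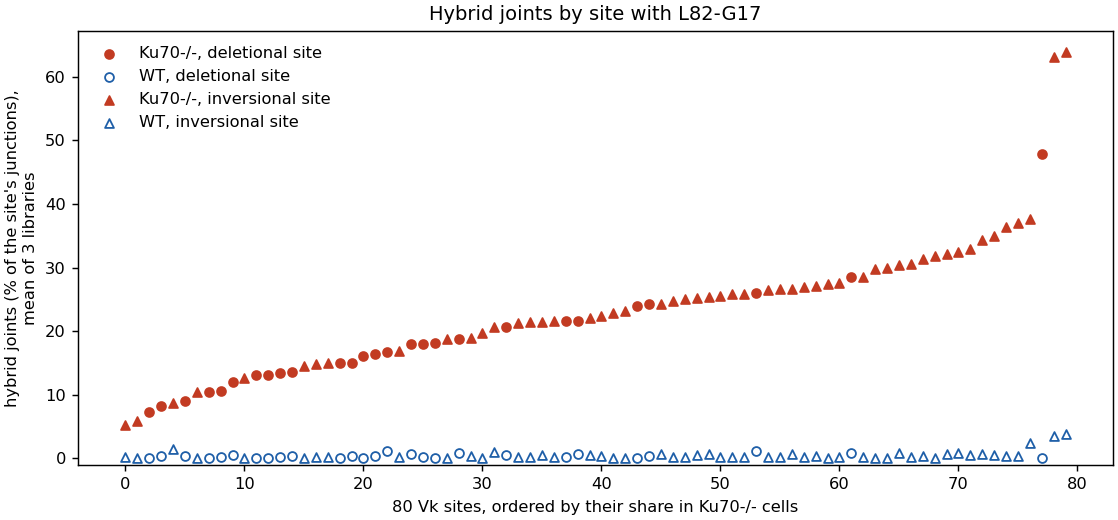
Hybrid joints as a percent of the junctions of each of 80 Vκ sites with L82-G17 (mean of 3 libraries), ordered by the Ku70-/- share; filled red symbols are Ku70-/-, open blue symbols WT, circles deletional and triangles inversional sites. The Ku70-/- share lies above every WT share at all 80 sites, and 3 sites stand above the rest at 47.9% to 64.0%.

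Usage of single Vκ sites, in junctions per 1000 Vκ junctions, was tested with limma at the 109 sites with 50 or more junctions on average. At an adjusted p under 0.05, 45 sites (41.3%) differed, 20 higher (18.3%) and 25 lower (22.9%) in Ku70-/-. Without 5 neighbouring sites described below, which left 104 sites in the fit, 18 were higher and 34 lower, and with each distinct junction counted once 22 of 69 were higher and 20 lower, of which 22 were among the 45 and changed the same way. The count fell to 15 (8 higher, 7 lower) in a fit on all 12 libraries, to 29 (12 and 17) with coding joints alone, and to 29 without WT replicate 1 (15 and 14) or WT replicate 2 (16 and 13). The most used site in Ku70-/- was Igkv1-135, with 54.7, 56.8 and 52.9 per 1000 against 29.2, 29.3 and 30.5 in WT (log2 change 0.89 ± 0.08 SE, limma adjusted p = 0.000523). Igkv12-44, the most used in WT, had 40.0 ± 0.731 in Ku70-/- and 33.5 ± 0.706 in WT (log2 change 0.26 ± 0.08, limma adjusted p = 0.0440), and it no longer passed under 10 of 13 alternatives, each of the 6 that left out 1 library included. Igkv6-32 (32.5 against 27.2) and Igkv1-117 (28.2 against 27.9), the other two among the 3 most used of a genotype, did not pass the test.

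The steepest falls were at 5 neighbouring sites that stand next to each other in the 91.0 kb from Igkv3-7 to Igkv3-2, close to Jκ1. In WT with L82-G17 Igkv3-7 had 4443, 3847 and 4356 junctions, the site at 70613889 755, 777 and 907, Igkv3-4 1645, 1730 and 1988, Igkv3-3 358, 137 and 199 and Igkv3-2 3965, 4120 and 4210. The 3 Ku70-/- libraries held 5, 1 and 5 junctions at the 5 sites together. Igkv3-3 was at 0 in Ku70-/-, so its share was at least 131-fold higher in WT (against 3 junctions over the group). The WT to Ku70-/- ratio of shares was 7147 at Igkv3-7 (95% exact interval for counting error, 1283 to 282317, from 1 junction) and 2316 at Igkv3-2 (792 to 11233, from 3). The genome of the Ku70-/- clone was not examined here, and the cause was not tested. The block was also near empty in the other 6 Ku70-/- libraries, with DMSO or cycling, for a total of 15 junctions in 9 Ku70-/- libraries and 128283 in 9 WT libraries, and the span between the sites held 7, 1 and 5 junctions of any kind in Ku70-/- with L82-G17. The neighbour on the Jκ1 side was in use in all 3 Ku70-/- libraries, and the far one had junctions in 1 of them. Igkv3-1, 18.4 kb from Jκ1, had 540, 420 and 443 junctions (4.51 ± 0.617 per 1000 against 5.28 ± 0.226 in WT, limma adjusted p = 0.160), and the weak site 12.2 kb upstream of the block had 0, 19 and 0 against 9, 31 and 49. No break site was found beside Igkv3-5. The 2 block sites with the highest WT counts are shown to their RSS, at chr6:70558007-70558058 and chr6:70649038-70649089 on the plus strand, both with the full heptamer in capitals.
Igkv3-7: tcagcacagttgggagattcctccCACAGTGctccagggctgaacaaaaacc
Igkv3-2: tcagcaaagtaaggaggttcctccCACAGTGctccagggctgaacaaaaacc

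Outside the block the changes were smaller, and folds are given from the fitted log2 means, which differ from the ratio of the printed means. The largest rise was at Igkv9-124, with 5.09, 5.93 and 5.15 per 1000 in Ku70-/- and 0.820, 0.503 and 0.681 in WT (8.15-fold, log2 3.03 ± 0.19 SE, limma adjusted p = 0.000139). Its neighbour Igkv9-123 had 1.17 ± 0.186 against 0.374 ± 0.0771. Igkv8-16 had 20.3, 19.3 and 19.4 in Ku70-/- and 3.59, 1.61 and 6.44 in WT (5.87-fold, limma adjusted p = 0.00866), and the site at 70190421 10.0 ± 0.520 against 2.34 ± 1.13 (4.58-fold). Those were the pair with the highest hybrid shares, and with coding joints alone their log2 changes were 1.54 and 1.11 and no longer passed (limma adjusted p = 0.0644 and 0.120), while Igkv9-124 still did (log2 2.66). Igkv13-84 (4.28 against 1.57), Igkv17-127 (3.80 against 1.59), Igkv5-45 (6.83 against 3.20) and the site at 68880263 (1.05 against 0.522) completed the 8 largest rises. With coding joints alone none of these 4, nor Igkv9-123, passed, with log2 changes of 1.52 at Igkv13-84, 0.69 at Igkv17-127, 0.95 at Igkv5-45, 0.79 at the site at 68880263 and 0.88 at Igkv9-123, beside 1.62, 1.27, 1.22, 1.02 and 1.65 with all joints. Over all alternatives the call was lost in 8 of 13 at Igkv5-45, 7 of 12 at Igkv13-84 and 7 of 11 at the site at 68880263. Among sites outside the block that passed the test without overlap, the largest falls were at the sites at 68544370 (0.135 against 0.612 per 1000) and 68911372 (0.402 against 0.868) and at Igkv8-24, with 6.79 ± 0.266 against 13.9 ± 0.942 (log2 -1.04 ± 0.09, limma adjusted p = 0.000523).

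**Figure D4:**
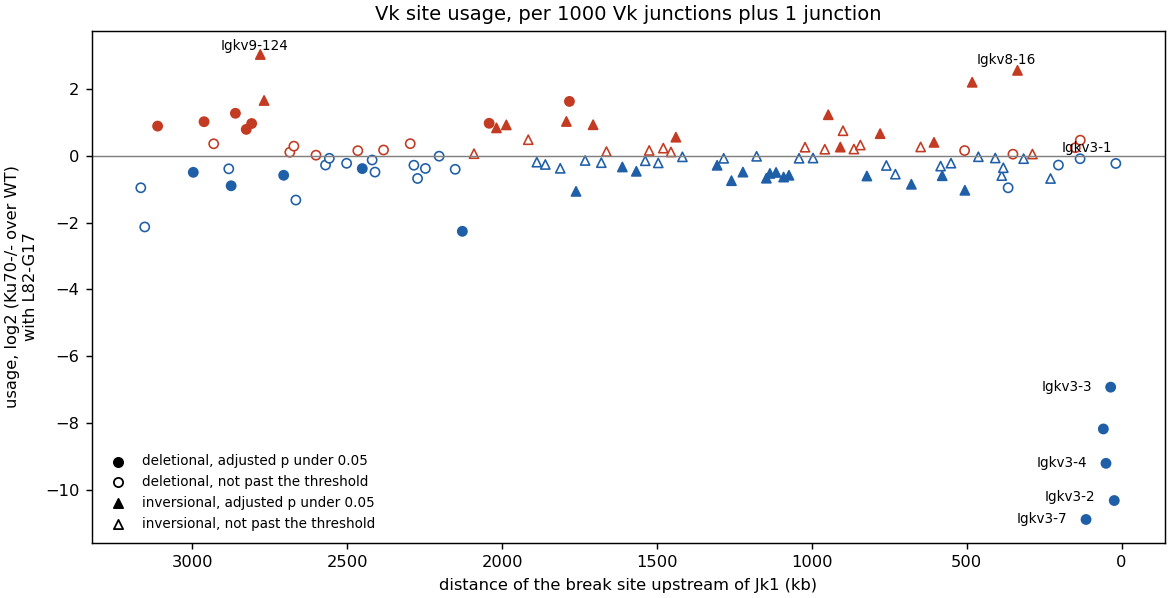
Change in usage of each of 109 Vκ sites (y axis, log2 of Ku70-/- over WT with L82-G17, per 1000 Vκ junctions plus the value of 1 junction) by distance upstream of Jκ1 in kb (x axis); circles are deletional and triangles inversional sites, filled where limma's adjusted p was under 0.05, red for higher and blue for lower in Ku70-/-. Most sites lie between -2 and 2, while 5 neighbouring sites near Jκ1 lie below -6.

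The counts by class are set beside 18.3% higher and 22.9% lower over all 109 sites, and with few sites in most classes nothing particular to a class is read from them. By family, the Igkv3 genes had 4 of 8 sites lower and none higher, all 4 in the block, and a median log2 change of -0.16 without the block. Of the 22 tested Igkv4 sites, 2 were higher and 6 lower (median -0.11), and of the 7 Igkv1 sites 2 were higher and 3 lower (median -0.26). In the Igkv9 family 2 of 4 were higher (median 0.97), in Igkv10 2 of 2 (0.90) and in Igkv12 2 of 6 (0.20), beside a median of -0.09 over all 109. None of the 8 Igkv6 and 4 Igkv2 sites passed. Igkv8 was split, with 2 higher and 2 lower of 8, Igkv5 with 1 and 1 of 5, and Igkv14, Igkv17 and Igkv13 had 1 higher of 4, 2 and 1. Igkv19-93 was higher at 24.8 ± 2.45 against 13.1 ± 0.549, and the single genes of Igkv15 and Igkv16 did not pass. Of 46 deletional sites 7 were higher and 10 lower, and of 63 inversional sites 13 and 15. Sites without an annotated gene had 2 higher and 9 lower of 23 (median -0.49), those with one 18 and 16 of 86 (-0.07). The full heptamer had 17 and 24 of 96, other heptamers 3 and 1 of 13.

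Over the 4 zones, from the outermost to the one nearest Jκ1, the shares of Vκ junctions were 24.6%, 18.4%, 33.8% and 23.2% in Ku70-/- and 20.6%, 16.5%, 35.1% and 27.8% in WT, without overlap in any zone (exact permutation p = 0.1 each). With each distinct junction counted once, the difference in the third zone turned to 0.0970 percentage points and the second zone overlapped (0.772). The lower share of the nearest zone went with the block, for without its 5 sites that share was 23.2% ± 0.851 in Ku70-/- and 23.1% ± 0.300 in WT (exact permutation p = 0.9). The sites were set aside after seeing that they were near empty in Ku70-/-, which shrinks the gap by construction. The outermost zone stayed higher in Ku70-/- without the block, at 24.6% ± 0.689 against 21.9% ± 0.284. Deletional sites took 36.9% of Vκ junctions in Ku70-/- and 39.1% in WT, and without the block 36.9% and 35.2%. The difference also turned with coding joints alone (0.700 percentage points), and was -0.629 with each distinct junction counted once, both with overlapping libraries. No site had a genotype difference that differed between L82-G17 and DMSO by limma's interaction term (0 of 112, 0%, adjusted p under 0.05; 2 at an unadjusted p under 0.05), also without DMSO replicate 1 (0 of 112, with 19 unadjusted). Of the 40 sites outside the block that differed with L82-G17, 31 had the same direction with DMSO, and 37 without DMSO replicate 1.

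Junctions outside chromosome 6 were more numerous in Ku70-/-. The 3 Ku70-/- libraries listed 1818, 2114 and 1548 such junctions and the WT libraries 223, 251 and 188, without overlap (log2 difference 3.05 ± 0.18 SE, or 8.27-fold; exact permutation p = 0.1). Counted once each, they were 339, 278 and 297 against 109, 94 and 109. The antigen receptor loci Igh, Igl, Tcra/Tcrd and Tcrg, which RAG1/2 also cuts, were counted in windows of whole megabases that hold them. They took 365, 595 and 250 in Ku70-/- and 17, 20 and 44 in WT. With DMSO they took 739 ± 284 in Ku70-/- and 32 ± 22.6 in WT, and the log2 genotype difference was 3.94 with L82-G17 and 4.69 with DMSO (change -0.74, exact permutation p = 0.405; -0.45 without DMSO replicate 1). In Ku70-/- most of this was Igl, the other light chain locus, with 319, 430 and 211 junctions in Ku70-/- and 9, 20 and 12 in WT, and the Mb that holds it (chr16:19000001-20000000) had the most distinct junctions in both genotypes (51, 45 and 36 against 3, 2 and 3). Of the 960 Igl junctions in Ku70-/-, 403 (42.0%) lay within 200 bp of Iglv1 (84, 145 and 80), Iglv3 (36, 14 and 4) or Iglv2 (7, 11 and 22), and the others elsewhere in that Mb. The next Ku70-/- regions were chr14:54000001-55000000, within the Tcra/Tcrd window (2, 12 and 3 distinct), and chr19:3000001-4000000 (3, 3 and 6), and in WT chr8:93000001-94000000 (2, 3 and 2).

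Away from receptor loci the Ku70-/- libraries held 1453, 1519 and 1298 junctions with L82-G17 and 358, 1011 and 1007 with DMSO, and the WT libraries 206, 231 and 144 with L82-G17 and 232, 267 and 276 with DMSO. The genotype difference was larger with L82-G17 by 1.43 on the log2 scale (exact permutation p = 0.005, adjusted 0.03; 0.93 without DMSO replicate 1). These counts hold read copies. Counted once each, the log2 counts in Ku70-/- were 8.145, 7.768 and 7.972 with L82-G17 and 5.931, 7.775 and 7.607 with DMSO. They overlapped also without DMSO replicate 1. In WT they were 6.67, 6.52 and 6.63 with L82-G17 and 7.07, 7.28 and 7.18 with DMSO, without overlap. The junctions were scattered, over 558 regions of 1 Mb in Ku70-/- of which 4 held a junction in all 3 libraries, and over 232 regions in WT, 1 of them in all 3. Off chromosome 6, 46.7% ± 3.43 of the Ku70-/- joints were direct and 4.01% ± 2.23 had insertions, against 23.5% ± 3.54 and 37.1% ± 5.34 in WT, and the Jκ1 end was untrimmed in 1.43% ± 0.864 and 26.1% ± 5.69. Unlike at Vκ sites, microhomology over 1 bp overlapped between the genotypes, at 21.6% ± 1.39 in Ku70-/- and 19.7% ± 3.00 in WT.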

How the data were processed

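HTGTS-JoinT-seq libraries of mouse vAbl pro-B cells were analysed from the junction lists that the authors deposited, in which each line is 1 junction with its bait and prey alignments, strand and read (values of other kinds than counts or expression units). Per the methods and labels, reads were demultiplexed (fastq-multx), trimmed (SeqPrep) and brought down to 500000 read pairs per library (Seqtk). These were aligned to mm9 with Bowtie2 in TranslocWrapper.pl and given bait region junctions by a second JoinT script. Duplicates were kept, and versions are not given in the sources used here. Since copies come from amplified reads without molecular identifiers, intervals cover counting error only.

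Vκ break sites were positions with at least 30 signal end junctions, none higher within 50 bp, next to CAC, in the 9 WT libraries with STI-571 that used the Jκ1 signal end as bait. Microhomology was the overlap and insertion the gap of the alignments (within 20 bp). The 4 zones have equal lengths, since published domain bounds were not used here. Libraries were compared by exact two-sided permutation of the difference of means, and the difference between L82-G17 and DMSO by exact permutation within genotype (400 arrangements), with Benjamini-Hochberg adjustment over 24 measures. Site usage was fitted in limma 3.58.1 (R 4.3.3) on log2 of junctions per 1000 plus the value of 1 junction, at sites averaging at least 50. On simulated data for the comparison of site usage, 86.7% of 30 sites changed by 1 on the log2 scale were recovered of 108 sites tested, with 4 false calls. Named sites were the 8 largest rises and falls past the threshold without overlap, the 3 most used per genotype and the Jκ1-proximal Igkv3 genes. The compared samples, lists and sites were chosen with earlier results of these data known. Alternatives covered windows, counting each distinct junction once, site support, filters, pseudocounts and leaving out each library.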

Additional observations from a re-analysis of the deposited data

Results flagged for a closer look

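For 10 measures the genotype difference (Ku70-/- minus WT) changed between DMSO and L82-G17 at p of 0.05 or less, by exact permutation of treatment labels within genotype. With adjustment over 24 measures, 6 of them had an adjusted p of 0.03 or 0.04. These were the share of junctions at Vκ sites (7.09 percentage points), the rest of chromosome 6 (-2.07), the hybrid share (-11.88), the log2 ratio of coding to hybrid joints (1.58), the outermost zone of the Vκ region (-3.11) and the log2 count of junctions off chromosome 6 and away from receptor loci (1.43). The other 4 had a permutation p of 0.05 or less only before adjustment (exactly 0.05 for insertions): junctions of the Vκ region away from sites (0.704, adjusted p = 0.107 by permutation), insertions (2.35, 0.12), Vκ ends within 10 bp (-9.43, 0.075) and the log2 count of all junctions off chromosome 6 (0.641, 0.0686). Ku70-/- DMSO replicate 1 enters each of these values. Without it the 6 were 6.55, -2.19, -9.41, 1.43, -2.73 and 0.933, in the same order. The log2 counts off chromosome 6 hold read copies and were not set against list length, and the WT lists were shorter with L82-G17. V-J efficiency was not among the 10 measures, its p depending on the rank of the small Ku70-/- change.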

How the results depend on the processing

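No paired analysis was possible because the labels carry no replicate numbers (those used here follow the order of deposit). Of 90 alternatives to the 24 genotype differences that kept all libraries, 82 left direction and call as they were. All 144 that left out 1 library did so too, but could not do otherwise. Groups without overlap cannot come to overlap when a library is removed, so this is no test of stability. Counting each distinct junction once turned V-J efficiency to 1.02, the direct share to 10.67 and the third zone to 0.0970, and left the second zone (0.772) and the deletional share (-0.629) with overlapping libraries. The deletional share was 0.700 with coding end preys only and 1.70 without the 5 sites from Igkv3-7 to Igkv3-2, an alternative chosen after seeing the data, under which the zone nearest Jκ1 was 0.102. The orientation gap of hybrid joints, taken as a ratio of shares (added after seeing the data), differed by 0.104 between genotypes, with overlap. The count of Vκ sites past the threshold (45) was 15 in a fit on all 12 libraries, 29 with coding end preys only, and between 29 and 40 when 1 library was left out, with 29 without WT replicate 1 and 29 without WT replicate 2. Over the 21 named sites, 211 of 251 alternatives left the call as it was, 38 ended it (10 at Igkv12-44, 8 at Igkv5-45, 7 each at Igkv13-84 and the site at 68880263), 2 made one and 0 turned the direction. For the difference between treatments, V-J efficiency had a permutation p of 0.05 or less before adjustment when distinct junctions were counted once (1.60). That value includes Ku70-/- DMSO replicate 1, with 889 distinct Vκ junctions in a group whose highest library had 12885. Ku70-/- with L82-G17 had 10744 to 14117, and no value without that replicate is given. The direct share also had a permutation p of 0.05 or less before adjustment without Ku70-/- DMSO replicate 1 (-4.83). Without that library junctions away from sites (0.486) and insertions (1.76) no longer did, nor insertions counted once (1.42). The cause of these shifts was not tested. With 3 libraries against 3, an exact permutation test cannot go below p = 0.1. Yields count read copies, which differed in number per distinct junction between the genotypes.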
